A study of Mus musculus with 2 samples.

Results

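The mouse miRNAs from miR-7211 to miR-7689 were taken as every probe of the spot tables whose number falls in that range, whatever its arm suffix, dim probes included. This gave 155 of the 1900 mouse miRNA probes on the array: both arms of the hairpins miR-7211 to miR-7243 and miR-7646 to miR-7689, 77 hairpins in all, and the single probe for miR-7578. The RNA was that of epithelial cells from the colon of C57BL/6 mice, 8 weeks of age. The control sample (1 array) carried no other treatment in its labels, and the DSS sample (1 array) came from mice given 2.5% dextran sulfate sodium, a polysaccharide that damages the colonic lining and inflames it, in drinking water for 5 days. The sources used here do not say how many mice stand behind either sample or how the cells were isolated. With a single array in each group nothing below could be tested between groups, and precision is limited by that number.

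A miRNA hairpin is cut by Drosha and Dicer into a short duplex, of which one strand, from the 5p or the 3p arm, is kept by an Argonaute protein and guides it to messenger RNAs. Pairing runs mainly through the seed, bases 2 to 8 of the mature strand. miRNA numbers follow the order of registration, so miRNAs with neighbouring numbers need not share sequence, position or function. No function is given for these miRNAs in the sources used here, and none is assumed. Mirtrons are a class of hairpins that are excised introns, and their 3′ end is therefore the AG of a splice acceptor.

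Mature sequences from RefSeq (build GRCm38.p6) matched 132 of the 155 probes by name. Among members with a sequence, some of the brightest and of those that differed most between the arrays are shown 5′ to 3′. The seed is in capitals, and for some hairpins both arms are shown, because base composition is set against brightness below.
miR-7653-5p: uAAGGGGCggacagacagacgg
miR-7653-3p: cCCCUACUguuccaccccgccu
miR-7672-5p: cGGUGGACuugacagcgggcga
miR-7687-5p: aGGCGGGGaaccugaggcgcaggcu
miR-7687-3p: cCACUCAGucgccccgccaca
miR-7671-3p: aAGCGGGCaggcggagaaccac
miR-7658-5p: uGUGGGCGuggcggugcugg
miR-7658-3p: aCCACCUUccucacccacgcu
miR-7648-3p: aGGGCUGGgcccgggacgcgg
miR-7684-3p: uGCUGACUggggcuggccugug
miR-7216-5p: uGGAGAGCuggcagaggacccaga
miR-7224-5p: gGGUAGGCcccucagugaaga
miR-7686-5p: cCUUCCACuggaccuggggcugggc
miR-7686-3p: cUGCUCGGggcacuguaagaga
miR-7662-3p: uGGAGCCAggcggaucagccuugc
miR-7651-5p: aAGUGGAAagccagccugagau

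The bright miR-7653-5p lies at chr11:78178827-78178848 (plus strand) within the span of Tlcd1, and miR-7672-5p at chr14:26669587-26669608 (minus strand) within Pde12. miR-7687-5p lies at chr8:120538696-120538720 (plus) within Gse1, and miR-7658-5p at chr4:156230096-156230115 (minus) within Klhl17. The pair of members that passed 2-fold lie at chr2:67675457-67675477 (plus) within B3galt1 for miR-7224-5p and at chr7:139957598-139957622 (minus) within Gm16201 for miR-7686-5p. RefSeq held 67 hairpin entries for the members, on 15 chromosomes, covering 66 of the 78 member numbers. The bright miR-7669 and miR-7672 were among those without a hairpin entry, and miR-7672-5p was placed by its mature entry. Of the 67 entries 55 lay inside the span of another gene and 50 inside that of a protein-coding gene. Only gene spans were used, so exon and intron were not told apart.

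The 67 entries had a median length of 61 bases, against 82 for the 386 hairpins numbered below 1000. For the 180 hairpins of miR-6896 to miR-7094, a neighbouring block of numbers, it was 66, so short hairpins were not particular to the members. Of the 67 entries 6 ended in AG (8.96%). In miR-6896 to miR-7094 it was 167 of 180 (92.8%), and for numbers below 1000 it was 29 of 386 (7.51%). The members thus carried the AG end about as often as the older hairpins did. The 132 mature sequences held 131 different seeds. The single shared seed within the set, CUGGCUU, belonged to miR-7652-3p and miR-7688-3p, and 21 members shared a seed with at least 1 other probe of the array.

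Both arrays carried 896 blank spots, and a probe was counted as measured when its spot exceeded the trimmed mean of the blanks by more than 2 SD. That SD was 3.49 in control and 4.53 in DSS, in arbitrary intensity units. Among 174 spots listed as holding no probe, 17 (9.77%) passed the limit in control and 54 (31.0%) in DSS, while blank spots passed in 7.25% and 6.14% of cases. Of the 16 spots of negative control 1, 4 passed in control and 13 in DSS. For negative control 2 it was 0 and 2 of 8 spots, and for negative control 3 it was 8 and 5 of 8. Passing the limit is thus weak evidence of a miRNA for a dim probe. The 8 spots of each spike control, a bright control, varied within an array by 5.29% to 10.0% (coefficient of variation), which covers spot error only. The mean of spike control 1 over blanks was 17974 in control and 36835 in DSS. For spike control 2 it was 17974 and 33720, so both were brighter on the DSS array. Of the 8 listed epithelial miRNAs 7 were measured in control and 8 in DSS. Their summed brightness over blanks was 921 in control and 950 in DSS. Of 7 leukocyte markers 3 and 4 were measured, with sums of 48.4 and 166, and miR-155-5p, miR-146a-5p and miR-142a-3p were measured on neither array. Of 6 smooth muscle and fibroblast markers 5 were measured on each, with sums of 1027 and 823. Sums of different lists are not comparable, since probes differ in binding. The part of such other cells in the members' signal was not tested.

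On the control array 89 of 155 members were measured (57.4%), against 56.3% of all 1899 usable miRNA probes. On the DSS array 99 were measured (63.9%), against 61.6% of all. Both arrays measured 84 members (54.2%, against 52.4% of all probes), so the share of members detected lay close to that of the array as a whole. By comparison, the block miR-6896 to miR-7094 was measured on both arrays for 84.7% of 202 5p probes and 72.1% of 201 3p probes, and the 814 probes numbered below 1000 for 36.6%. A further 5 members passed the limit on the control array alone, 15 on the DSS array alone and 51, miR-7578 among them, on neither. Of all probes 3.95%, 9.16% and 34.5% did so, near the members' shares.

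The limit cut through a dense group of dim members. On the control array miR-7646-3p lay just outside at 6.86 over blanks and miR-7213-3p just inside at 7.09. On the DSS array miR-7223-3p lay just outside at 8.98 and miR-7226-5p just inside at 9.08. Within 1 blank SD of the limit lay 21 members in control and 41 in DSS. If the limit was set at the 95th percentile of the spots without a probe, a choice made after seeing the data, 84 members passed in control and 58 in DSS, and these 58 passed on both. Of all probes 53.1% and 39.3% passed this limit.

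**Figure D1:**
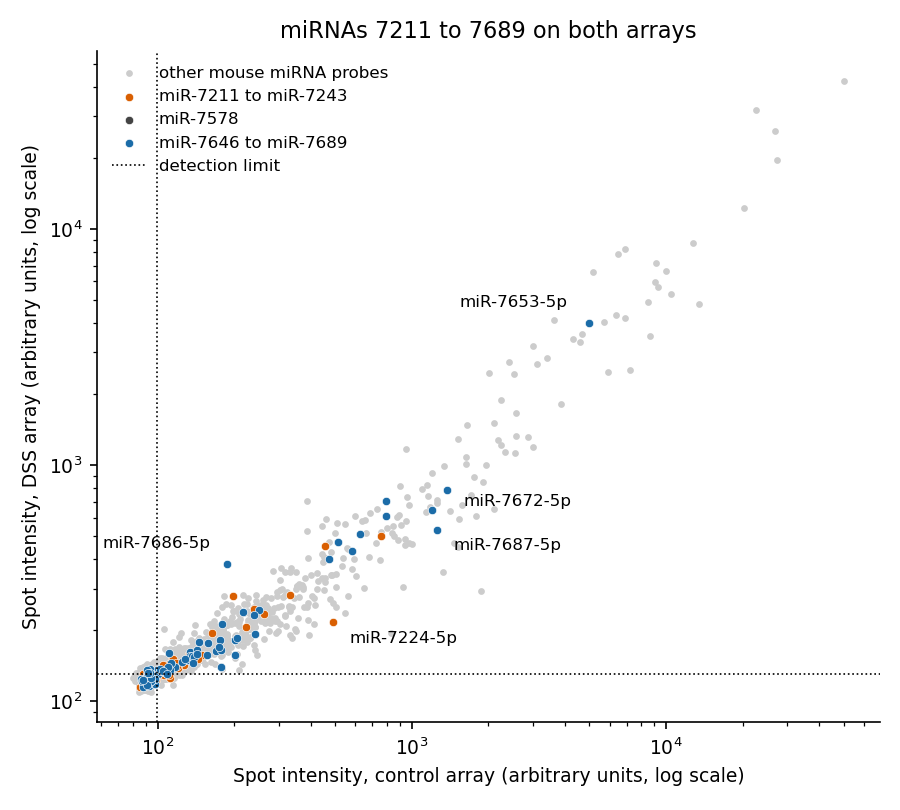
Spot intensity of each miRNA probe on the control array (x axis) against the DSS array (y axis), in arbitrary units on log scales, with members coloured by number range, other probes in grey and the detection limits dotted. Most members sit near the limits, miR-7653-5p stands apart as the brightest at 4986 and 3984, and miR-7224-5p and miR-7686-5p lie off the main band.

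Most members were dim. The median member lay 11 over blanks in control and 12.4 in DSS, against 11.3 and 13.4 for all probes. More than 100 over blanks were 25 of the 155 members in control and 20 in DSS, and more than 1000 were 4 and 1. Of all 1899 probes, 316 and 247 were more than 100 over blanks, and 73 and 47 more than 1000. Brighter than the median probe measured on both arrays (44.7 over blanks) were 38 of the 155 members, against 497 of all 1899 probes. Of these 38 bright members, 28 came from the 88 probes of miR-7646 to miR-7689. The other 10 came from the 66 probes of miR-7211 to miR-7243. Brightness differs between probes with their binding strength as well as with the amount of miRNA, so these values do not rank the miRNAs by abundance.

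miR-7653-5p was the brightest member, at 4894 over blanks in control and 3862 in DSS, rank 23 and rank 21 of all probes. No other member passed 1000 on both arrays. miR-7672-5p gave 1281 in control and 666 in DSS, and miR-7669-3p gave 1109 and 521. These members were dimmer on the DSS array before normalisation while their ranks hardly moved, from 61 to 58 for miR-7672-5p and from 67 to 71 for miR-7669-3p. miR-7687-5p gave 1163 in control and 412 in DSS and went from rank 64 to 91. miR-7671-3p gave 703 and 580 and went from rank 93 to 64. The ranks of this pair moved in opposite directions.

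Of the next members, miR-7658-5p gave 698 in control and 485 in DSS and miR-7235-5p 663 and 378. miR-7648-3p gave 534 and 387, and miR-7665-5p 490 and 313. Each was dimmer on the DSS array before scaling. miR-7684-3p (419 and 353), miR-7216-5p (363 and 333) and miR-7686-3p (381 and 280) showed the same order. Of the 38 bright members 33 were dimmer over blanks on the DSS array, as were 424 of the 497 probes of that brightness on the whole array, so it held for bright probes of the array in general. The remaining 46 members measured on both arrays ranged from 7.09 to 51.6 in control and from 9.08 to 39.8 in DSS.

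**Figure D2:**
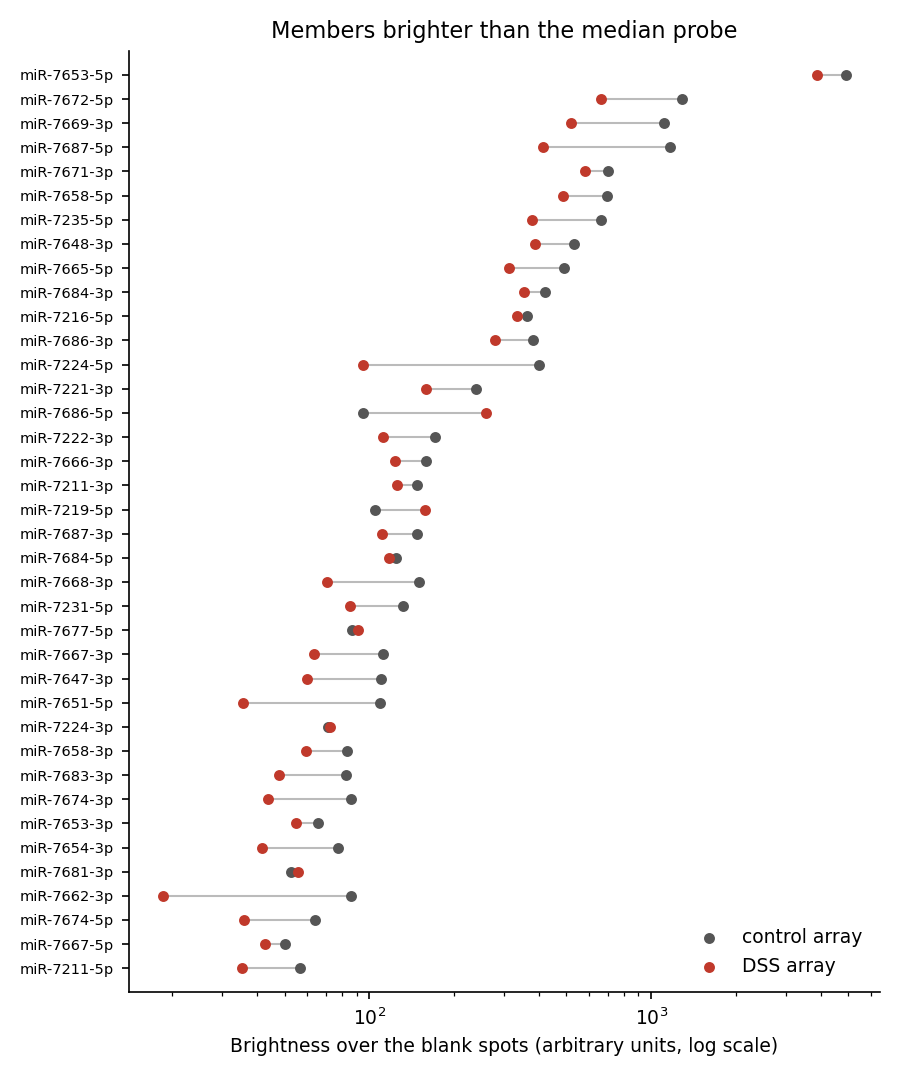
Brightness over the blank spots in arbitrary units (x axis, log scale) of the 38 members brighter than the median probe, with 1 point for the control array and 1 for the DSS array joined by a line. In 33 of 38 the DSS point lies to the left of the control point, and miR-7662-3p, miR-7224-5p and miR-7651-5p have the widest gaps.

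Across probes, brightness went with base composition. Spearman's rho between the share of G and C in the mature miRNA and the spot intensity was 0.70 in control and 0.65 in DSS over the 132 members with a sequence, and 0.68 and 0.64 over the 1481 other probes with one. Probes are not independent replicates and share the array, so this is a description. Of 25 members with under 45% G and C, 5 were measured on both arrays and the brightest reached 16.8 in control and 17.7 in DSS. Of 41 members with 60% or more, 35 were measured on both, and this class held miR-7653-5p, miR-7672-5p, miR-7687-5p and miR-7658-5p. Of the 38 bright members 31 had a sequence, and 21 of these were in this class. The bright miR-7669-3p, miR-7235-5p and miR-7665-5p had no sequence and are left out of this relation. Of the other probes on the array, 12.9% under 45% and 89.9% at 60% or more were measured on both. The share of G and C was 85.7% in miR-7648-3p and 75% in miR-7658-5p, as their printed sequences show.

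The other arms of 4 of the brightest 5p members were also measured. They gave 65.8 (control) and 55 (DSS) over blanks for miR-7653-3p, 83.2 and 59.8 for miR-7658-3p, and 148 and 111 for miR-7687-3p. miR-7672-3p gave 18.2 and 38.6. The DSS value was the lower for the first 3 and the higher for miR-7672-3p, whose 5p partner was dimmer on the DSS array. All 4 arms, dim beside their 5p partners, were also in the class of 60% or more G and C. Their shares were 68.2% for miR-7653-3p, 61.9% for miR-7658-3p, 71.4% for miR-7687-3p and 61.9% for miR-7672-3p. The 5p partners had 63.6%, 75%, 72% and 68.2% in the same order. Unequal shares were found in 45 hairpins with an arm measured and both sequences known. The arm with the higher share was the brighter in 32 of these in control and 31 in DSS. Whether probe binding or the miRNA itself sets the relation with base composition was not tested.

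**Figure D3:**
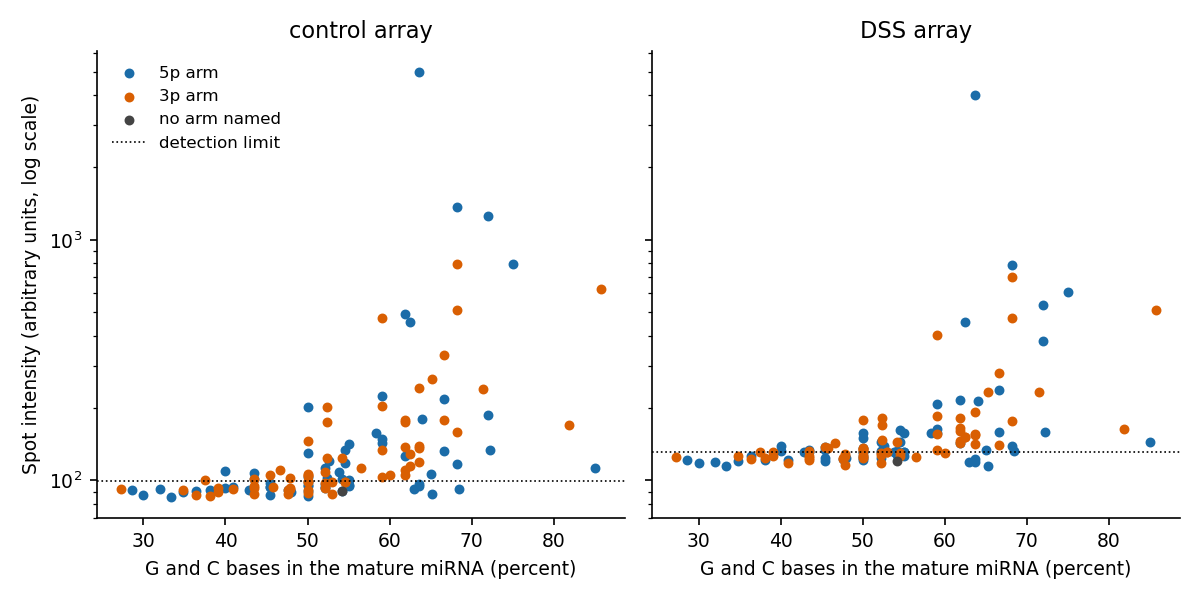
Share of G and C in the mature miRNA (x axis, percent) against spot intensity (y axis, arbitrary units, log scale) on each array for the 132 members with a sequence, coloured by arm, with the detection limit dotted. Members under 45% hug the limit, and the brightest sit at 60% and above.

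Differences between the samples are given as log2 values (DSS minus control) of background-corrected signals with 50 added, after quantile normalisation, which ties a probe's value to its rank. The median over the 84 members measured on both arrays was −0.02, against −0.004 over all 995 such probes. The lower and upper quartiles were −0.10 and 0.09, against −0.12 and 0.14 for all probes. Of the 84, 35 were higher and 49 lower on the DSS array, where 48.1% and 50.6% of all were. In either direction 7 (8.33%) differed by more than 0.5, against 10.1% of all. At 2-fold or more, 1 member was higher (0.503% of all probes were) and 1 was lower (1.01% of all). These shares lay near those of the array as a whole and say nothing specific about the members.

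miR-7686-5p had the largest positive difference of the members. It gave 95 over blanks in control and 258 in DSS, and rank 323 became rank 124. The normalised difference was 1.44, or 2.71-fold. It was positive under all 10 other settings, from 0.08 with scaling to the spike controls to 2.01 with the blank mean subtracted. It was below 2-fold with median scaling (0.95), with the spike controls and with the background value listed for each spot subtracted (0.65). In the authors' deposited table it went from 53.5 to 203. This is 1 of 5 members brighter on the DSS array among the 38 bright ones.

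miR-7224-5p had the largest negative difference of the members. It gave 399 over blanks in control and 95.1 in DSS, and rank 125 became rank 257. The normalised difference was −1.10, or 2.14-fold lower. All 10 other settings gave a negative value, from −2.50 with scaling to the spike controls to −0.31 with each spot's listed background subtracted. It was below 2-fold in the latter and without background correction (−0.94). In the authors' deposited table it went from 224 to 74.8.

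The next negative differences were −0.76 for miR-7662-3p and −0.58 for miR-7651-5p. miR-7662-3p gave 85.7 over blanks in control and 18.5 in DSS, where 95% of the spots without a probe lay under 21.0. miR-7651-5p gave 109 and 35.6. The DSS value of miR-7662-3p was thus within the range of spots without a probe, and its fold is poorly determined. miR-7687-5p followed at −0.53, but subtracting the background value listed for each spot gave 0.62. The files list a background of 1410 for its spot of 1256 in control and of 563 for its spot of 534 in DSS. miR-7668-3p (−0.38) was the last of the 5 largest, at 150 over blanks in control and 70.7 in DSS. Subtracting the listed background gave 0.05 for it.

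The next positive differences were 0.82 for miR-7219-5p, 0.58 for miR-7671-3p, 0.44 for miR-7216-5p and 0.39 for miR-7672-3p. miR-7219-5p gave 105 over blanks in control and 157 in DSS, brighter before scaling as well. Scaling to the spike controls turned it to −0.55, and subtraction of the background value listed for each spot to −0.03. miR-7672-3p gave 18.2 and 38.6, and the spike controls turned it to −0.59. Both miR-7671-3p and miR-7216-5p were dimmer on the DSS array over blanks. Without scaling miR-7671-3p was at −0.24 and miR-7216-5p at −0.10, so their sign rests on the scaling. Subtracting the background value listed for each spot also turned miR-7671-3p, to −0.51, while miR-7216-5p stayed positive at 0.19.

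Of the 8 brightest members, miR-7687-5p and miR-7671-3p differed by more than 0.5, as given above. The other 6 were at 0.19 for miR-7653-5p, 0.13 for miR-7672-5p, −0.08 for miR-7669-3p, 0.26 for miR-7658-5p, −0.06 for miR-7235-5p and 0.21 for miR-7648-3p. Without scaling these 6 were −0.34, −0.88, −1.0, −0.47, −0.71 and −0.40 in the same order. A single array per group leaves no error against which to judge either set.

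**Figure D4:**
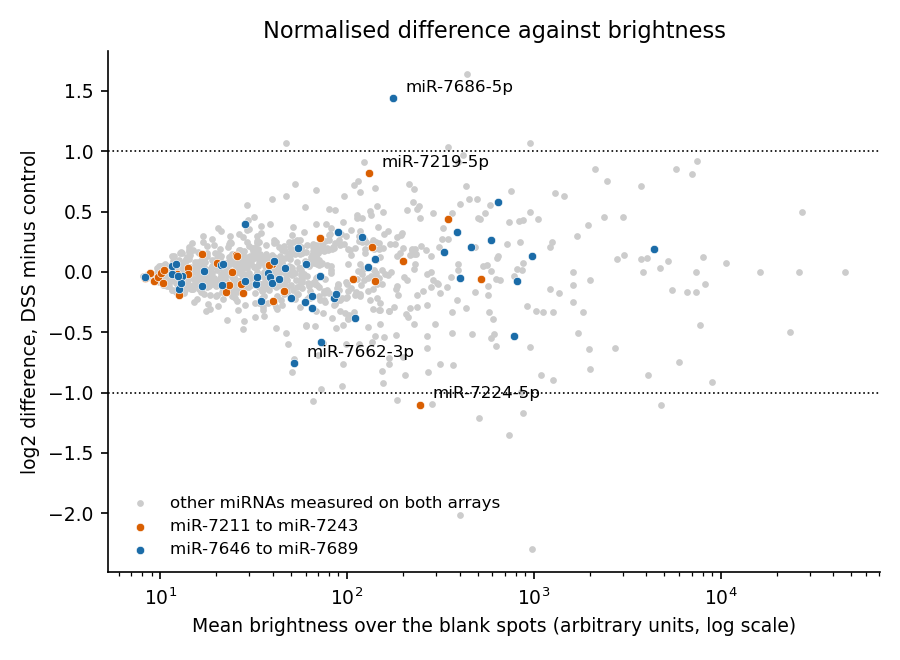
Normalised log2 difference, DSS minus control (y axis), against mean brightness over the blank spots in arbitrary units (x axis, log scale) for miRNAs measured on both arrays, with members coloured by number range and dotted lines at 2-fold. miR-7686-5p at 1.44 and miR-7224-5p at −1.10 are the only members beyond the lines.

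Arms of a hairpin come from 1 transcript, and their differences can be set side by side. The added 50 shrinks the difference of a dim arm more than that of a bright one. A gap between arms therefore also depends on how bright each probe was. Both arms were measured on both arrays for 31 hairpins. The sign of the difference was unequal in 12 of them, and the median gap between the arms was 0.16. For 5 hairpins the gap exceeded 0.5, and they included both members past 2-fold. The partner of miR-7686-5p, miR-7686-3p, gave 381 over blanks in control and 280 in DSS, a normalised difference of 0.17. The partner of miR-7224-5p, miR-7224-3p, gave 71.3 and 72.7, a difference of 0.28. Neither partner passed 2-fold, and the other arms in this group were miR-7662-5p at −0.11, miR-7651-3p at −0.05 and miR-7687-3p at 0.04. Of these, miR-7662-5p gave 24.8 over blanks in control and 17.8 in DSS. The DSS value lay under the 95th percentile of the spots without a probe, 21.0, as did that of miR-7662-3p. The gap between the arms of miR-7662 is therefore poorly determined. miR-7651-3p gave 7.44 and 9.2, just above the limits of 6.98 and 9.06 over blanks, so its difference is poorly determined. In the authors' deposited table miR-7651-3p went from 4.18 to 7.24. In miR-7684 both arms were higher, at 0.29 for 5p and 0.33 for 3p, although both were dimmer over blanks on the DSS array.

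**Figure D5:**
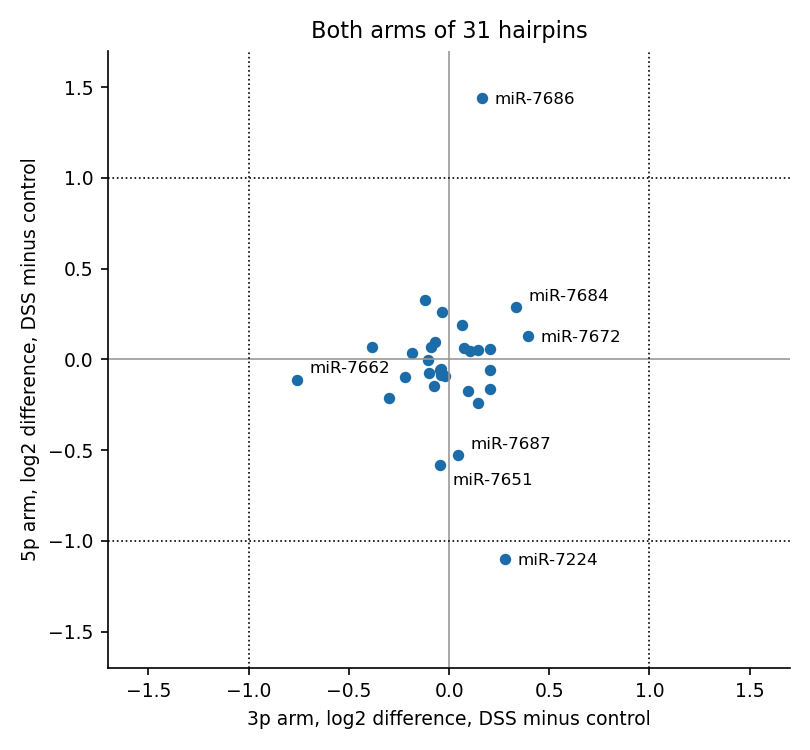
Log2 difference, DSS minus control, of the 3p arm (x axis) against that of the 5p arm (y axis) for the 31 hairpins with both arms measured on both arrays, with dotted lines at 2-fold. miR-7686 and miR-7224 leave the central group along the 5p axis only, with 3p values of 0.17 and 0.28.

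Of the hairpins in RefSeq, 3 pairs lay close together on the same strand. miR-7221 and miR-7222 lie 2324 bases apart on chromosome 2. miR-7221-3p gave 239 over blanks in control and 159 in DSS (0.09 after normalisation), and miR-7222-3p gave 171 and 112 (−0.08). miR-7221-5p gave 34.1 and 21.3 (−0.18), and miR-7222-5p was measured on neither array. miR-7217 and miR-7218 lie 2297 bases apart on chromosome 17, with −0.10 for miR-7218-3p, −0.08 for miR-7218-5p and 0.03 for miR-7217-3p, while miR-7217-5p passed the limit in DSS alone. miR-7241 and miR-7242 lie 1718 bases apart on chromosome 9, where miR-7242-5p was at −0.005, miR-7242-3p at −0.10 and miR-7241-5p at 0.01. miR-7241-3p passed the limit in control alone. miR-7676 has 2 loci on chromosome 15, within Csf2rb2 and Csf2rb, which the probes cannot tell apart, and its arms were at 0.07 for 5p and −0.09 for 3p.

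Members measured on 1 array were all dim. The 15 on the DSS array alone lay between 9.13 and 15.4 over blanks there, and none exceeded the 95th percentile of the spots without a probe, 21.0. The brightest were miR-7656-5p at 15.4, miR-7683-5p at 14.6 and miR-7229-3p at 14.4, against 0.924, −1.95 and 1.27 on the control array. The highest lower bound of the 15 was at least 1.09-fold higher, for miR-7656-5p. Only 7 of the 15 had a bound above 1-fold, so for the rest it shows no increase. The 5 on the control array alone, all 3p arms, lay between 10.2 and 19.5, above the 95th percentile of the spots without a probe on that array, 8.91. They were led by miR-7215-3p (19.5 in control and 3.25 in DSS), miR-7241-3p (18.2 and 7.05) and miR-7689-3p (16.3 and 8.34). miR-7215-3p had the highest bound of these, at least 1.18-fold lower on the DSS array. This direction rests on the scaling: with the 75th percentile over probes measured on both arrays the difference was 0.07 for miR-7215-3p, 0.18 for miR-7241-3p and 0.24 for miR-7689-3p. Scaling to the spike controls likewise turned the leading members of the DSS array, to −0.61 for miR-7656-5p, −0.55 for miR-7683-5p and −0.63 for miR-7229-3p. The bounds use the values with the offset, which shrinks folds of dim probes.

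Among the members sharing a seed, miR-7652-3p gave 31.7 over blanks in control and 25.2 in DSS (−0.07), and miR-7688-3p gave −4.77 and 0.904, below the limit on both. miR-7670-3p, singled out after its values were seen, shares the seed UCCCUUU with miR-204-5p and miR-211-5p. It was measured on neither array, at −1.25 and 4.38, while miR-204-5p (4.03 and 25.5) passed the limit in DSS alone and miR-211-5p (7.76 and 9.16) on both.
miR-7670-3p: uUCCCUUUcugaauaucuguaga
miR-7652-3p: uCUGGCUUuccuguggcuucu
miR-7688-3p: uCUGGCUUaugccuagcuuuc

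In the authors' deposited table, which carries no offset, 8 of the 84 members were at least 2-fold higher (8.94% of all probes were) and 4 were at least 2-fold lower (4.12% of all). The 4 lower members were miR-7662-3p (48.2 to 14.5), miR-7224-5p, miR-7651-5p (61.2 to 28.0) and miR-7687-5p (655 to 324). All were among the bright members. Of the 8 higher, miR-7686-5p and miR-7219-5p (59.1 to 124 in the authors' deposited table) were bright, and the other 6 were dim, such as miR-7672-3p (10.2 to 30.3) and miR-7240-3p (7.02 to 16.4).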

How the data were processed

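Total RNA labelled with Hy5 was hybridised to 1 array per sample, per the labels' protocols. The deposited spot tables hold the median intensity of each spot and of its background at 635 nm, combined from scans at 3 gains per the file headers. The authors' deposited table holds processed intensity values. They equal the spot intensity minus the trimmed blank mean, times 0.563 (control) or 0.787 (DSS), and unmeasured probes are empty. The group came from the labelled agent.

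Of 1900 miRNA probes, 1 marked as poor quality was not used. The blank mean and SD leave out 45 of 896 blanks at each end. Background correction used normexp with offset 50 in limma 3.58.1 (R 4.3.3). Quantile normalisation of the log2 values then covered all miRNA probes. The steps were tested on simulated arrays with known changes in brighter probes only and no overall shift in signal. That test does not cover dim members or a shift between the arrays. A lower bound sets a measured value against the lowest measured value of the other array, or the dim probe's own where that is higher. The files' background was not subtracted because it followed spot brightness (Spearman's rho 0.86 and 0.72 over the members). What this background value covers is not stated in the sources used here.

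The members, lists and settings were chosen with earlier results of these data known. The naming rule took members brighter than the median, the 5 largest differences each way, those past 2-fold, the 3 brightest on each single array, hairpins with both arms measured, and shared seeds. Sequences and gene spans came from RefSeq, GRCm38.p6.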

Additional observations from a re-analysis of the deposited data

How the results depend on the processing

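With 1 array per group nothing was tested, and dim signal limits most members. On the DSS array 64 members were measured with the limit at the brightest negative control, and 58 with the limit at the 95th percentile of spots without a probe, chosen after seeing the data. On the control array these limits gave 71 and 84, and the other limits gave counts within 1.5 times of the ones reported on both arrays. Members at least 2-fold higher and lower are given with the shares of all probes in brackets. They numbered 0 and 3 with median scaling (0% and 6.33%), 1 and 2 with the 75th percentile over probes measured on both arrays (0.302% and 1.71%) or over all probes (0.201% and 4.12%), 1 and 3 with no scaling (0.101% and 5.13%), and 0 and 50 with the spike controls (0% and 55.2%). They numbered 3 and 4 with the blank mean subtracted (3.42% and 4.82%) and 2 and 2 with offset 0 (1.61% and 2.51%). They numbered 1 and 0 without background correction (0.302% and 0.603%), and 1 and 0 with the background value listed for each spot subtracted (2.11% and 2.11%). They numbered 8 and 4 in the authors' deposited table (8.94% and 4.12%) and 2 and 2 at 1.5-fold (3.22% and 4.22%). The median of the members was −0.17 with median scaling, 0.27 with the 75th percentile over probes measured on both arrays, −1.04 with the spike controls and 0.21 in the authors' deposited table, where all probes had −0.15, 0.28, −1.02 and 0.21. Under all settings the members' median stayed between −0.08 and 0.03 of that of all probes. Median, 75th percentile and spike control scaling differ from no scaling by 1 constant for all probes. The cause of the remaining differences between settings was not tested. No paired analysis was possible because each group holds 1 array.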

Other observations

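The background value that the files give for each spot exceeded the spot itself for 7 of the 89 members measured in control and 17 of the 99 in DSS. For miR-7658-5p this held on both arrays, with 799 against a spot of 791 and 620 against 607.

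Bright spots lay beside both members past 2-fold on the array. Next to miR-7224-5p the miR-6980-5p spot gave 2447 over blanks in control and 1008 in DSS, and next to miR-7686-5p the miR-7052-5p spot gave 2237 and 1013, miR-7686-3p 381 and 280 and miR-7052-3p 174 and 156. These bright neighbours were dimmer on the DSS array, as was miR-7224-5p, and miR-7686-5p was brighter there. The medians of the adjacent spots were 0.265 and 10.9 for the 5 around miR-7224-5p, and 65.7 and 69.1 for the 8 around miR-7686-5p. Whether neighbours add to the signal was not tested.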
